A study of Bos taurus with 9 samples.

Results

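Described here are 10 genes of the Notch pathway in bovine blastocysts, the receptors *NOTCH1*, *NOTCH2* and *NOTCH3*, the ligands *DLL1*, *DLL4*, *JAG1* and *JAG2*, the DNA-binding factor *RBPJ* and the target genes *HES1* and *HEY1*. They were chosen by symbol for their role in the pathway, and all 10 were found among the 21512 genes listed. The embryos came from oocytes injected with Cas9 mRNA, either alone or together with a single guide RNA against the fourth exon of *TEAD4*, then fertilised with sperm of a single bull and cultured in synthetic oviduct fluid to D8, 8 days after in vitro fertilisation. The 4 KO blastocysts, labelled TEAD4-/-, carried only alleles with frame-disrupting insertions or deletions. The 5 WT blastocysts carried no mutated allele, the class to which every embryo injected with Cas9 mRNA alone belonged. Each blastocyst, with its inner cell mass (ICM) and trophectoderm (TE) together, gave 1 library, so that separate embryos are the replicates, named WT 1 to WT 5 and KO 1 to KO 4 as the columns of the table are numbered. Values are in TPM, transcript abundances that correct for transcript length and sum to 1000000 in each library. They keep no number of reads, so that the depth of each library and the counting error of low values cannot be computed from them. The comparison asks whether transcripts of Notch genes differ between blastocysts with and without an intact *TEAD4* gene.

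Notch receptors span the cell membrane and are activated by Delta-like or Jagged ligands on a neighbouring cell. Binding lets ADAM proteases and then gamma-secretase cut the receptor, and the released intracellular domain enters the nucleus, where it joins RBPJ and recruits coactivators to target genes of the HES and HEY families. In the mouse blastocyst, Notch signalling through RBPJ acts beside TEAD4 and its coactivator YAP upstream of *Cdx2* in the trophectoderm.

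*TEAD4*, the edited gene, was at 18.0, 52.5, 54.3, 36.5 and 43.4 TPM in WT 1 to WT 5 and at 42.8, 41.8, 12.5 and 22.2 TPM in KO 1 to KO 4. The groups overlapped (two-sided exact permutation p = 0.286), and because a small insertion or deletion need not lower the amount of transcript, this level does not check the genotype labels.

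The Notch genes spanned a wide range of abundance. *RBPJ* and *HES1* were the most abundant, at 44.1 and 38.5 TPM on average over the 9 libraries, followed by *HEY1* at 3.99 TPM and *JAG2* at 2.53 TPM. The other 6 genes averaged under 1 TPM, *DLL1* at 0.469, *JAG1* at 0.406, *NOTCH1* at 0.169, *NOTCH3* at 0.134, *DLL4* at 0.0381 and *NOTCH2* at 0.0306 TPM. Of these means, that of *NOTCH1* was 0.0849 TPM without KO 3, and those of *DLL4* and *NOTCH2* were 0.0110 and 0.0195 TPM without WT 5. *HES1* was above *HEY1* in all 9 libraries, and *JAG2* was above *DLL1* in 8 of 9. *RBPJ* was above *HES1* in 7 of 9 libraries, and the range of *RBPJ*, 23.8 to 66.5 TPM, overlapped with that of *HES1*, 17.4 to 56.6 TPM. *HEY1* was above *JAG2* in only 4 of 9 libraries, *NOTCH1* above *NOTCH3* in 3 and *DLL4* above *NOTCH2* in 3, so that the order within these pairs did not hold beyond the spread between embryos. *DLL1* was above *JAG1* in 5 of 9 libraries, which were the 5 WT embryos. All 10 genes were above 0 TPM in WT 3 and WT 5, 9 of them in WT 1, WT 2, KO 1 and KO 4, 8 in WT 4 and KO 3, and 7 in KO 2.

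**Figure D1:**
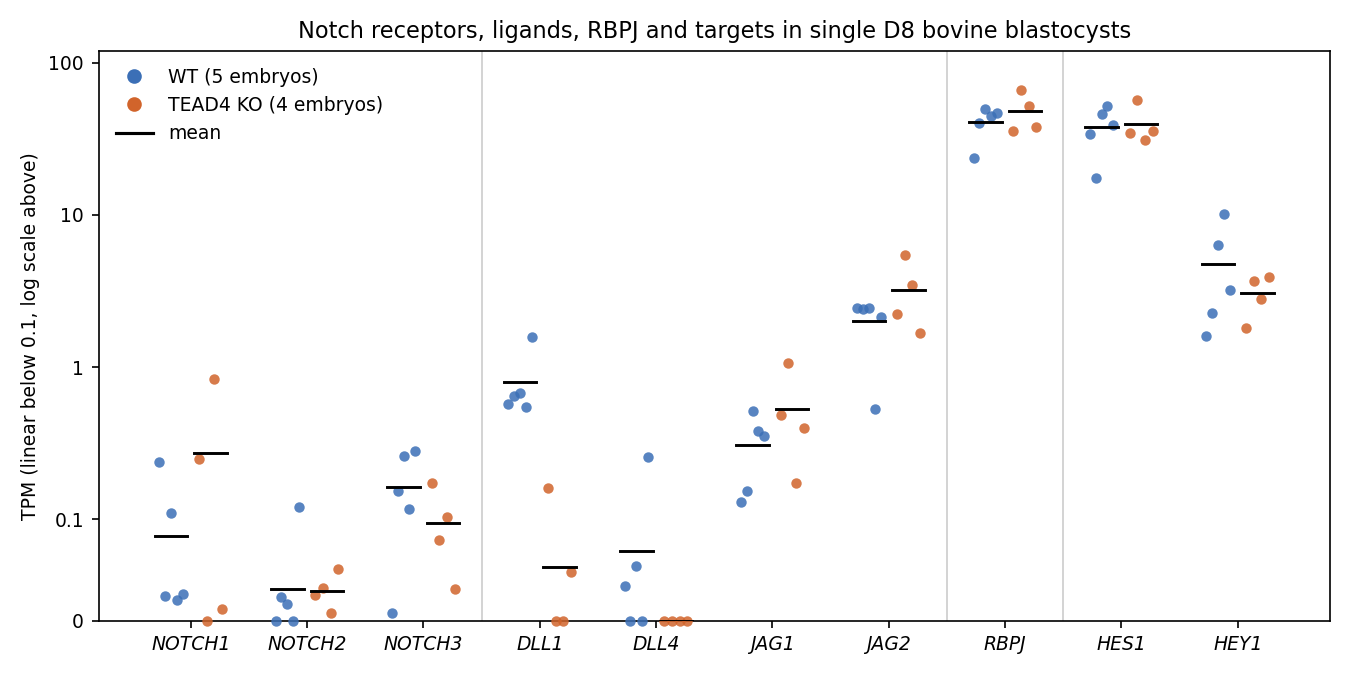
TPM of the 10 Notch genes in each blastocyst, with WT embryos in blue, KO embryos in orange and the group mean as a bar. The vertical axis is logarithmic above 0.1 TPM and linear below it, and vertical lines separate receptors, ligands, *RBPJ* and targets. *DLL1* is the gene in which all KO points (0 to 0.162 TPM) lie below all WT points (0.544 to 1.58 TPM), while in the other 9 genes the points of the groups overlap.

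Differences between KO and WT embryos were tested with limma on log2(TPM + 1) for the 14599 genes with a median above 0.1 TPM over the 9 libraries, with Benjamini-Hochberg adjustment over all of them. This filter was passed by 7 of the 10 Notch genes, and *NOTCH1*, *NOTCH2* and *DLL4* stayed below it. Of the 7 Notch genes that passed, 0 were called changed by limma (adjusted p under 0.05 with a log2 fold change beyond 1 in either direction), against 3 of all genes tested (0.0205%). *DLL1*, *JAG1* and *NOTCH3* could not be called lower, since their WT means of log2(TPM + 1), at 0.82, 0.38 and 0.21, left no room for a decrease beyond 1. An unadjusted p under 0.05 was reached by 1 Notch gene, *DLL1*, which was lower in KO. Among all genes tested, 559 (3.83%) were lower and 302 (2.07%) higher in KO at that level. That split moved with the scaling, with 523 lower and 431 higher genes after scaling by median-of-ratios size factors and 471 and 533 after quantile normalization. It also moved with single embryos, to 462 lower and 518 higher without KO 1 and 940 and 295 without KO 2. All KO embryos were below all WT embryos in 1 Notch gene, again *DLL1*, and in 179 of all genes tested (1.23%), while all KO embryos were above all WT embryos in 0 Notch genes and in 117 of all genes (0.801%). *DLL1* passed the filter only through its WT values, since its median over the 9 libraries, 0.544 TPM, is its lowest WT value, so no count over the 7 genes is read as a result. By their log2 fold changes, 3 of the 7 genes were lower in KO (*NOTCH3*, *DLL1* and *HEY1*) and 4 higher, with a median log2 fold change of 0.12 (2 lower and 5 higher after quantile normalization), and among all genes tested 8150 were lower and 6449 higher, with a median of −0.05. With *NOTCH1*, *NOTCH2* and *DLL4* included, 5 of 10 were lower.

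Receptor transcripts were scarce in both genotypes. *NOTCH1*, the receptor best known from lymphoid and neural development, was at 0.237, 0.0247, 0.111, 0.0201 and 0.0265 TPM in WT 1 to WT 5 and at 0.249, 0, 0.837 and 0.0119 TPM in KO 1 to KO 4. KO 3 held the highest value and KO 2 was listed at 0, so that the KO embryos lay on both sides of the WT embryos (two-sided exact permutation p = 0.540). *NOTCH2* did not exceed 0.120 TPM, a value found in WT 5, and was listed at 0 in WT 1 and WT 4 (two-sided exact permutation p = 0.952). *NOTCH3*, a receptor of vascular smooth muscle, was at 0.00766, 0.152, 0.262, 0.117 and 0.281 TPM in the WT embryos and at 0.173, 0.0798, 0.103 and 0.0313 TPM in the KO embryos. The highest values, in WT 3 and WT 5, and the lowest, in WT 1, were all from WT embryos. The log2 fold change of *NOTCH3* was −0.08 (standard error, SE, 0.13, limma adjusted p = 0.982), and 0.02 after quantile normalization. Summed over these 3 receptors, the level was 0.279 ± 0.124 TPM (SD, n = 5) across WT and 0.400 ± 0.400 TPM (SD, n = 4) across KO embryos. The KO mean rested on KO 3 (0.948 TPM) and was 0.218 TPM without it, below the WT mean. *NOTCH4*, a receptor known from endothelium and taken up here after its values were seen, was above the sum of these 3 in every embryo. It ranged from 0.630 to 0.812 TPM in WT and from 0.649 to 1.28 TPM in KO embryos, with a log2 fold change of 0.13 (SE 0.18, limma adjusted p = 0.982).

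Among the ligands, the values of *DLL1* did not overlap between the genotypes, and those of *DLL4*, *JAG1* and *JAG2* did. *DLL1*, a Delta-like ligand that activates receptors on adjacent cells, was at 0.568, 0.642, 0.678, 0.544 and 1.58 TPM in WT 1 to WT 5 and at 0.162, 0, 0 and 0.0483 TPM in KO 1 to KO 4. All WT embryos were above 0.5 TPM, WT 5 stood above the other 4, and only KO 1 among the KO embryos exceeded 0.1 TPM. The mean was 0.803 ± 0.440 TPM (SD, n = 5) across WT and 0.0525 ± 0.0762 TPM (SD, n = 4) across KO embryos, 15.3 times higher in WT, or 11.6 times without WT 5. Without KO 1 the KO mean was 0.0161 TPM. The groups did not overlap, which gave the smallest p that the 126 splits of 9 embryos into 5 and 4 allow (two-sided exact permutation p = 0.0159). The log2 fold change of *DLL1* was −0.75 (95% confidence interval −1.15 to −0.35, SE 0.18, lower in 4 of 4 KO embryos), and *DLL1* was not called after adjustment over the 14599 genes (limma adjusted p = 0.415). *DLL1* passed the filter only through its WT values, so these limma values describe the difference and are not read as a test. Without a filter, its limma adjusted p over 18549 genes was 0.442. A pseudocount of 1 TPM understates differences between values this low, and with 0.1 TPM the log2 fold change was −2.58 (limma adjusted p = 0.168, within a range of 0.168 to 0.717 over the alternatives). In whole blastocysts, fewer cells that express a gene and less RNA per cell cannot be told apart.

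Transcripts of *DLL4*, the Delta-like ligand of sprouting vessels, were above 0 TPM in WT 1, WT 3 and WT 5, at 0.0346, 0.0535 and 0.255 TPM, and were listed at 0 in the other 2 WT and in all 4 KO embryos (two-sided exact permutation p = 0.238). *JAG1*, a Jagged ligand, was at 0.129, 0.154, 0.514, 0.380 and 0.353 TPM in the WT embryos and at 0.485, 1.07, 0.174 and 0.396 TPM in the KO embryos. KO 2 was highest, and the other 3 KO embryos lay within the WT range, with a log2 fold change of 0.21 (95% confidence interval −0.20 to 0.62, limma adjusted p = 0.956) that was 0.05 without KO 2. *JAG2*, the second Jagged ligand and the most abundant of the 4 ligand genes on average, was at 2.45, 2.41, 2.46, 0.533 and 2.13 TPM in WT 1 to WT 5 and at 2.23, 5.44, 3.44 and 1.69 TPM in KO 1 to KO 4. WT 4 was the lowest of all embryos, KO 2 and KO 3 were above every WT embryo, and KO 1 and KO 4 lay within the WT range. The log2 fold change of *JAG2* was 0.47 (95% confidence interval −0.31 to 1.25, limma adjusted p = 0.936), and it was 0.24 without WT 4 and 0.23 without KO 2.

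The makeup of the ligand transcripts was looked at after these values were seen, so it is given as a description, and the permutation p computed for it is not used. Summed TPM of the 4 ligand genes were 3.18 ± 1.07 (SD, n = 5) across WT and 3.78 ± 1.92 (SD, n = 4) across KO embryos, or 2.87 without KO 2. *DLL1* made up 17.9, 20.0, 18.3, 37.3 and 36.6% of this sum in WT 1 to WT 5 and 5.62, 0, 0 and 2.27% in KO 1 to KO 4. *JAG2* made up 77.0, 75.2, 66.4, 36.6 and 49.3% in the WT embryos and 77.5, 83.6, 95.2 and 79.2% in the KO embryos. Of the 2 WT embryos with the largest *DLL1* shares, WT 5 had the highest *DLL1* level and WT 4 the lowest *JAG2* level.

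**Figure D2:**
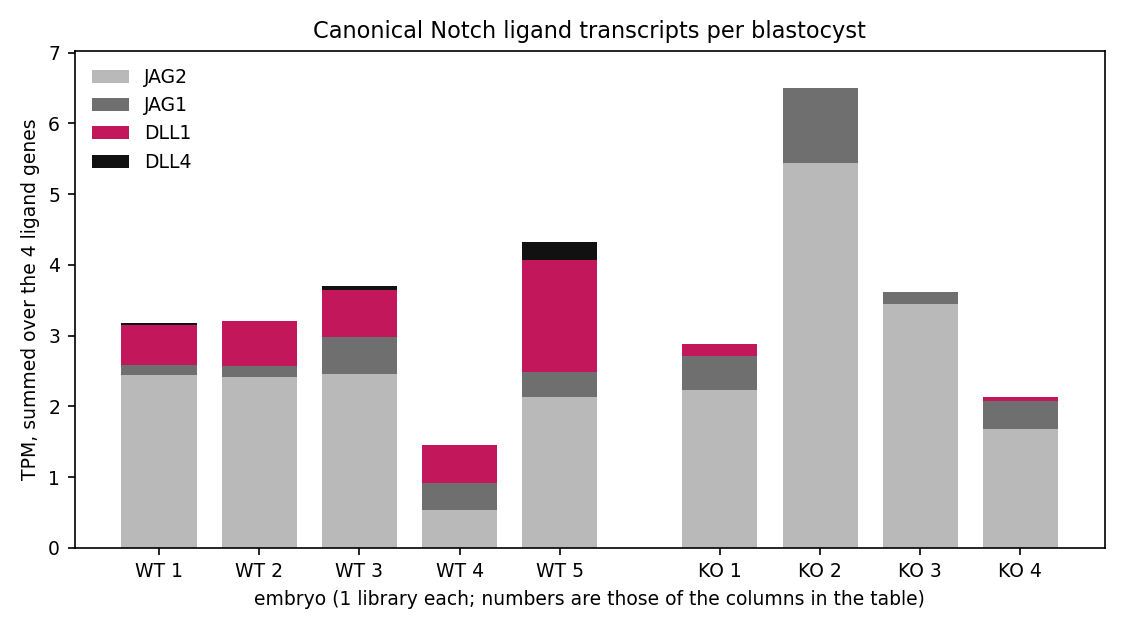
TPM of the ligand genes *JAG2*, *JAG1*, *DLL1* and *DLL4* stacked for each blastocyst, with WT embryos on the left and KO embryos on the right. The *DLL1* segment is seen in every WT embryo and is small or missing in the KO embryos, while total bar height overlaps between the groups (1.46 to 4.33 TPM in WT, 2.13 to 6.51 TPM in KO).

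*RBPJ*, which binds DNA for the pathway and represses target genes when no Notch fragment is present, was at 23.8, 40.0, 49.8, 44.9 and 47.0 TPM in WT 1 to WT 5 and at 35.5, 66.5, 51.7 and 37.8 TPM in KO 1 to KO 4. WT 1 was lowest and KO 2 highest, with the remaining embryos interleaved. The mean was 41.1 ± 10.3 TPM (SD, n = 5) across WT and 47.9 ± 14.3 TPM (SD, n = 4) across KO embryos, a log2 fold change of 0.21 (95% confidence interval −0.41 to 0.84, limma adjusted p = 0.982). The difference between the means was smaller than the SD of either group, and the two-sided exact permutation p was 0.492. The log2 fold change was 0.03 without WT 1 and 0.04 without KO 2.

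*HES1*, a transcriptional repressor that Notch and other pathways induce, was at 34.0, 17.4, 45.9, 52.1 and 38.9 TPM in the WT embryos and at 34.8, 56.6, 31.2 and 35.4 TPM in the KO embryos. KO 2 stood above all others, WT 2 stood below all others, and the other 3 KO embryos lay between 31.2 and 35.4 TPM. Its mean was 37.7 ± 13.3 TPM (SD, n = 5) across WT and 39.5 ± 11.6 TPM (SD, n = 4) across KO embryos, with a log2 fold change of 0.12 (95% confidence interval −0.60 to 0.83, limma adjusted p = 0.987). The direction rested on single embryos, as the log2 fold change of *HES1* was −0.13 without WT 2 and −0.07 without KO 2. *HEY1*, a related repressor, was at 1.60, 2.28, 6.37, 10.2 and 3.23 TPM in the WT embryos and at 1.81, 3.67, 2.80 and 3.90 TPM in the KO embryos. WT 3 and WT 4 held the highest values and WT 1 the lowest, so that all KO embryos were inside the WT range. Its mean was 4.74 ± 3.56 TPM (SD, n = 5) across WT and 3.05 ± 0.953 TPM (SD, n = 4) across KO embryos, a log2 fold change of −0.33 (95% confidence interval −1.28 to 0.63, limma adjusted p = 0.982). It was −0.03 without WT 4 and −0.56 without WT 1. Differences in *HES1* or *HEY1* within these intervals were not excluded by the 9 embryos.

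**Figure D3:**
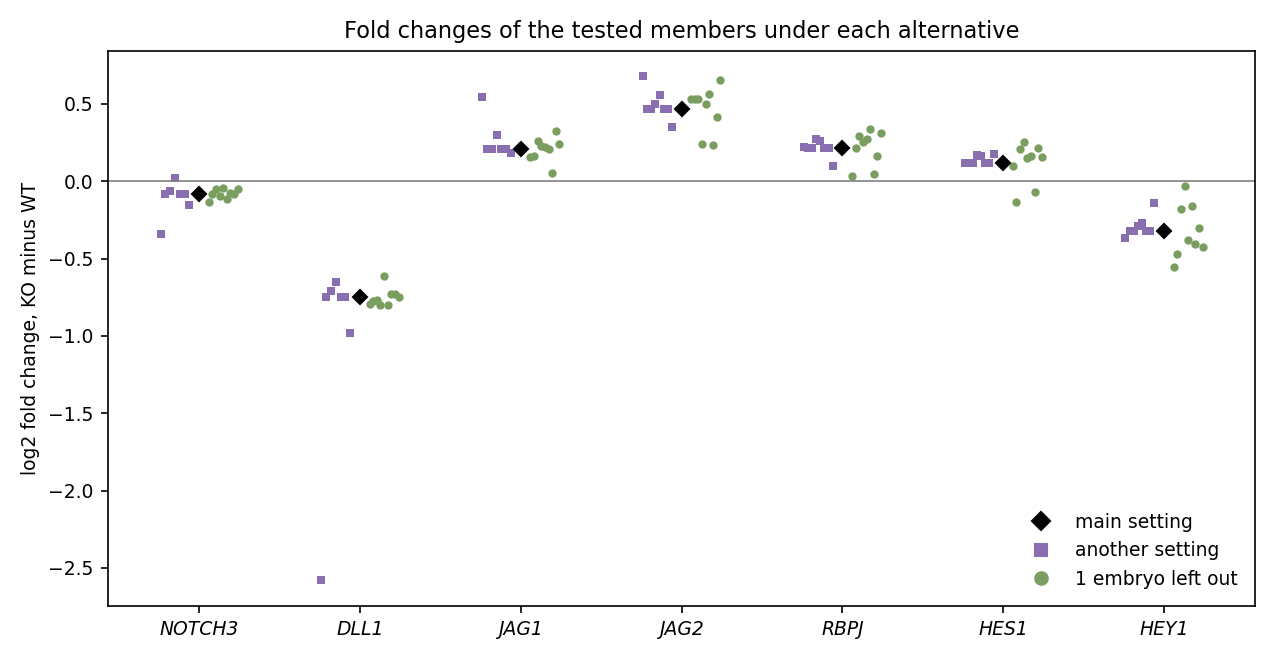
Log2 fold changes (KO minus WT) of the 7 Notch genes that passed the filter, under the main setting (diamond), other settings of filter, pseudocount, scaling or variance model (squares), and with 1 embryo left out (circles). *DLL1*, a gene that passed the filter only through its WT values, stays below 0 throughout, from −2.58 with a pseudocount of 0.1 TPM to −0.61 without WT 5. Points of *HES1* and *NOTCH3* fall on both sides of 0.

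The remainder of the pathway was described by 61 further genes in 8 lists by role, of which 50 passed the filter. Of these 50 genes, limma called 0 changed, 0 had an unadjusted p under 0.05 and 0 had groups that did not overlap, against 0.0205% called, 3.83% lower and 2.07% higher at that p and 1.23% below and 0.801% above without overlap among all genes tested. On the log2 scale 29 were lower and 21 higher in KO, with a median of −0.05 and a range from −0.77 to 0.67, and the smallest adjusted p from limma was 0.897. Of the other receptors and ligands, 3 of 4 passed the filter and all 3 were higher in KO (median 0.19). *DLL3*, a ligand that inhibits Notch within the same cell, was the most abundant of them and exceeded each of the 4 ligand genes above in every embryo, at 9.15 ± 3.01 TPM (SD, n = 5) across WT and 10.3 ± 1.81 TPM (SD, n = 4) across KO embryos, and *DLK1* was listed at 0 in all 9 libraries. Of the enzymes that glycosylate the receptors, 3 of 4 tested were lower (median −0.10), and *RFNG*, a Fringe glycosyltransferase, was the most abundant at 26.5 TPM over the 9 libraries. The Fringe gene *LFNG*, taken up after its values were seen, was at 1.16, 10.8, 18.3, 18.1 and 9.28 TPM in the WT embryos and at 5.80, 2.92, 6.82 and 4.80 TPM in the KO embryos. WT 1 held the lowest *LFNG* value and the other 4 WT embryos were above every KO embryo, with a log2 fold change of −0.75 (SE 0.58, limma adjusted p = 0.937) that was −1.30 without WT 1.

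Of the proteases and gamma-secretase subunits, all 9 passed the filter, 6 lower and 3 higher in KO (median −0.14). *PSENEN*, the smallest subunit of gamma-secretase, was the most abundant at 345.7 ± 50.1 TPM (SD, n = 5) across WT and 314.9 ± 51.9 TPM (SD, n = 4) across KO embryos, a log2 fold change of −0.14 (SE 0.20). Of the ubiquitin ligases that drive ligand endocytosis, *MIB1* and *MIB2* passed the filter, both lower (median −0.09), with *MIB2* the more abundant at 12.7 TPM. Of the RBPJ coactivators, 5 of 6 passed, 3 lower and 2 higher (median −0.02), led in abundance by *SNW1* at 95.2 TPM. Of the corepressors, 14 of 14 passed, 8 lower and 6 higher (median −0.13), with *HDAC1*, a histone deacetylase, at 404 ± 48.2 TPM (SD, n = 5) across WT and 385 ± 192 TPM (SD, n = 4) across KO embryos. Of the inhibitors and turnover factors, 9 of 11 passed, 6 lower and 3 higher (median −0.20), and the ubiquitin ligase *ITCH* was the most abundant at 14.4 TPM. Of the other HES and HEY genes, 4 of 8 passed, 1 lower and 3 higher (median 0.08), and *HES6* was the most abundant on average but ranged from 0.124 TPM in KO 4 to 30.6 TPM in KO 2, and without KO 2 its mean was below that of *HEYL*. *HEY2*, taken up after its values were seen, averaged 1.34 TPM over WT and 2.44 TPM over KO embryos, and *HEYL* 4.60 and 2.97 TPM, with log2 fold changes of 0.67 (SE 0.42) and −0.49 (SE 0.34). The WT mean of *HEY2* rested on WT 1, and without it the mean was 0.609 TPM and the log2 fold change 1.01.

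**Figure D4:**
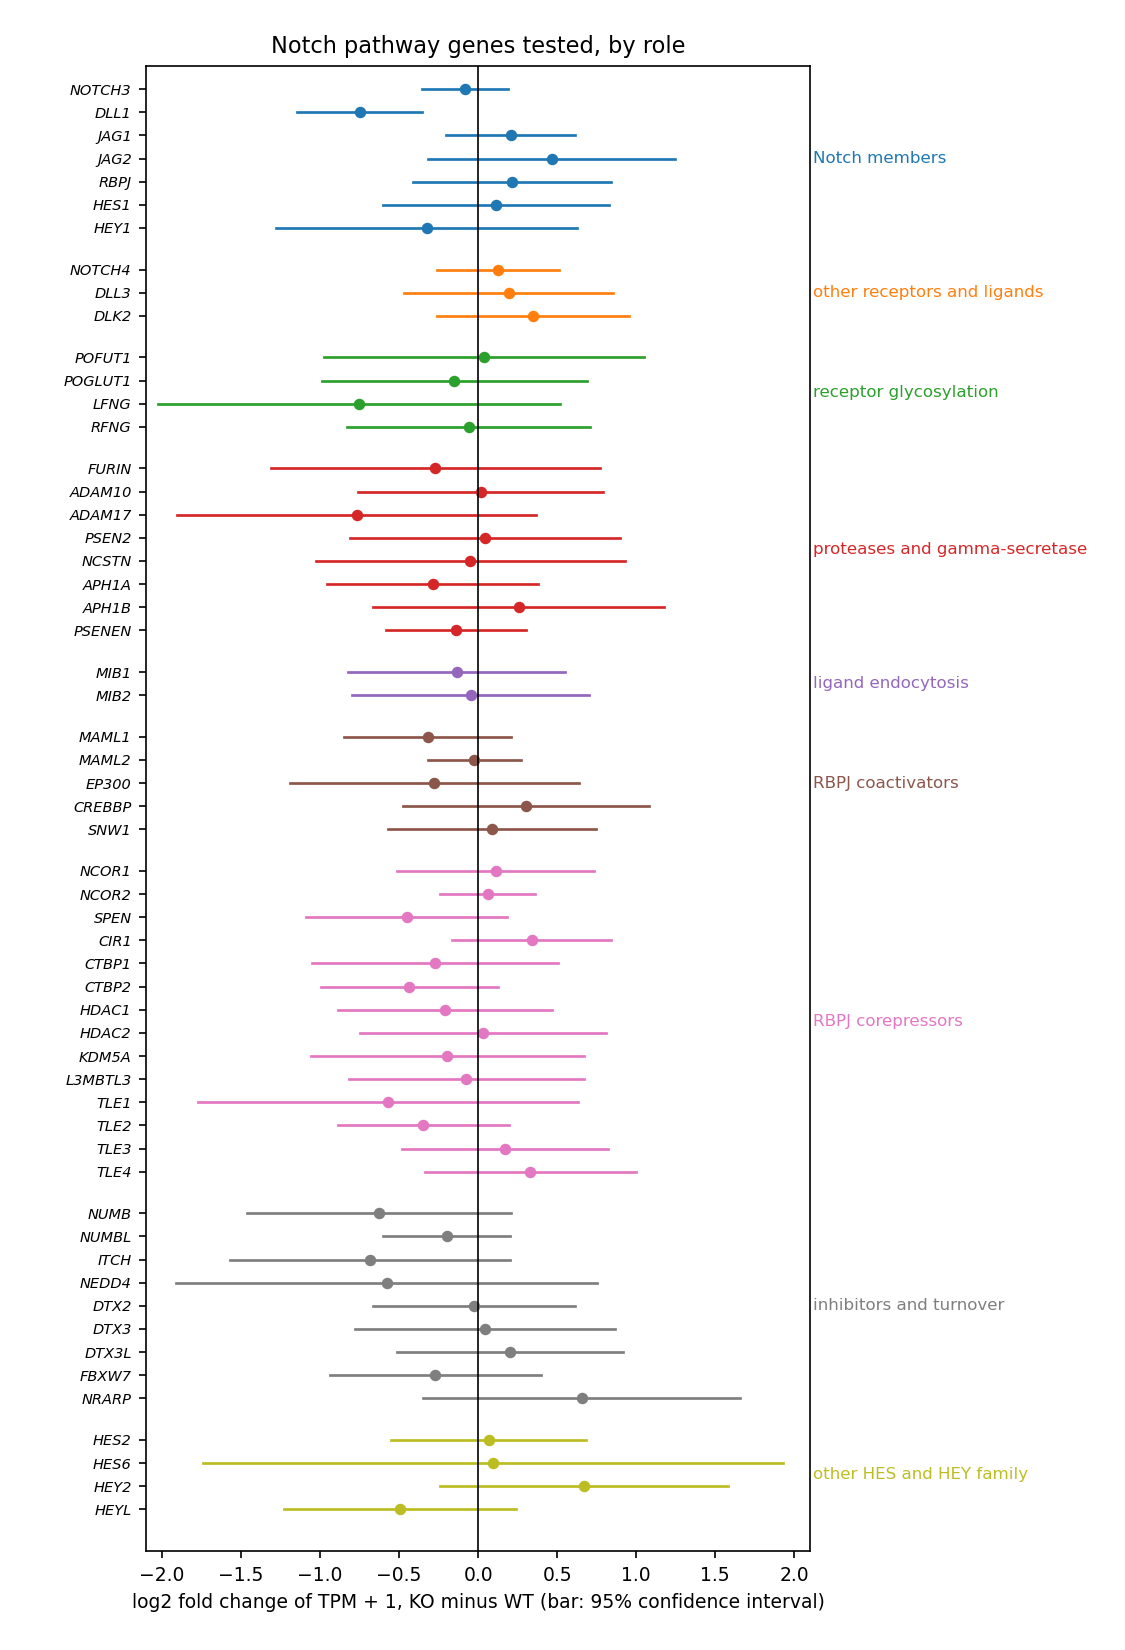
Log2 fold changes (KO minus WT, on the log2(TPM + 1) scale) of Notch pathway genes that passed the filter, grouped by role, with 95% confidence intervals from limma before adjustment. The interval of *DLL1*, a gene that passed the filter only through its WT values, runs from −1.15 to −0.35, and of all 14599 genes tested 559 have intervals below 0 and 302 above 0.

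Markers of the cell types in the blastocyst, and of cells that could be carried over, were measured in the same libraries, since whole embryos do not show which cells hold *DLL1* transcripts. Summed TPM of 6 hypoblast markers were 84.0, 102.5, 127, 130.1 and 168 in WT 1 to WT 5 and 47.9, 157, 60.9 and 102 in KO 1 to KO 4. Of these markers 5 of 6 were lower in KO, against 8150 of all 14599 genes tested. At an unadjusted p under 0.05 from limma, 1 of the 6 (*GATA4*) was lower, against 3.83% of all genes. *GATA6* was the most abundant at 78.8 TPM, and *HNF4A* was listed at 0 in WT 1 and KO 3. *GATA4*, an early hypoblast factor, did not overlap between the groups, at 1.46 ± 0.284 TPM (SD, n = 5) across WT and 0.640 ± 0.243 TPM (SD, n = 4) across KO embryos (limma adjusted p = 0.684). All KO embryos were below all WT embryos in 1.23% of all genes tested. Summed TPM of 10 cumulus or granulosa cell markers were 262, 119, 70.7, 133 and 161 in the WT embryos and 51.1, 33.9, 122 and 7.44 in the KO embryos. These sums came mostly from *CYP11A1* and *FSHR*, so they do not stand for the list as a whole. Of the 5 markers on this list that passed the filter 3 were lower in KO, against 8150 of all 14599 genes tested. *TNFAIP6* passed mainly through WT values, above 0.1 TPM in 4 WT and 1 KO embryos. *AMH* was above 0.1 TPM in 2 WT and 3 KO embryos. The count of directions is therefore not read as a result. At an unadjusted p under 0.05 from limma, 1 of the 5 (*CYP11A1*) was lower, against 3.83% of all genes. The most abundant was *CYP11A1*, an enzyme of steroid synthesis, at 129 ± 73.2 TPM (SD, n = 5) across WT and 33.8 ± 43.1 TPM (SD, n = 4) across KO embryos (limma adjusted p = 0.566), or 12.9 TPM in KO without KO 3. *FSHR*, the receptor that defines granulosa cells, averaged 17.5 TPM over WT and 17.1 TPM over KO embryos, with KO 4 at 1.37 TPM, below the lowest WT value of 12.1 TPM, and a KO mean of 22.3 TPM without KO 4. The less abundant *TNFAIP6* ranged from 0 to 2.08 TPM in WT and from 0 to 0.290 TPM in KO embryos, *HAS2* from 0.00608 to 0.520 and from 0 to 0.0118 TPM, *INHBA* from 0 to 0.386 and from 0 to 0.0260 TPM, *AMH* from 0 to 0.133 and from 0.0289 to 2.27 TPM, and *CYP19A1* from 0.319 to 1.57 and from 0.503 to 3.05 TPM. *INHA* ranged from 0 to 0.173 TPM in WT and from 0 to 0.385 TPM in KO embryos. For *PTX3* the ranges were 0 to 0.0344 and 0 to 0.370 TPM, and for *FST* 0 to 0.256 and 0 to 0.116 TPM. The oocytes had been freed of cumulus cells with hyaluronidase before injection. Summed markers of TE were 11510 ± 5606 TPM (SD, n = 5) across WT and 8765 ± 2705 TPM (SD, n = 4) across KO embryos, led by *KRT8*. Of the 6 TE genes, 0 were called changed or at an unadjusted p under 0.05 by limma. Among all genes tested, 0.0205% were called, and 3.83% were lower and 2.07% higher at that p. Summed epiblast markers were 1321 ± 513 TPM (SD, n = 5) and 1771 ± 390.4 TPM (SD, n = 4), mostly from *POU5F1*, at 1176 TPM across WT and 1709 TPM across KO embryos. By the study's account, POU5F1 and CDX2 exclude each other between ICM and TE in the mouse but not in cattle. The sum is therefore not read as a measure of epiblast. By limma, 0 of 5 epiblast genes were called or at an unadjusted p under 0.05, against the same shares of all genes. With shares this small, these counts for TE and epiblast are not read as a result. Of the 5 epiblast markers 3 were lower in KO (median log2 fold change −0.68), with *NANOG* at 0.127 to 261.8 TPM in WT and 2.70 to 53.3 TPM in KO embryos, *SOX2* at 3.89 to 90.4 and 2.26 to 42.4 TPM and *FGF4* at 0 to 14.4 and 0 to 3.16 TPM. Sperm markers summed to 3.36 to 124.6 TPM in WT embryos, highest in WT 4, and 3.73 to 93.4 TPM in KO embryos, highest in KO 3. *PRM1* was the most abundant on average (*TNP1* without KO 3), and *ODF1* was at 0. *TNP2* was higher in KO at an unadjusted p under 0.05 from limma, as were 2.07% of all genes tested. Blood markers summed to 54.8 to 173 TPM in WT and 62.3 to 315 TPM in KO embryos, nearly all from *HBA*, with *PTPRC* and *HBB* at 0 in all 9 libraries. The number of genes above 0 TPM was 14807 to 16678 in WT and 14776 to 15375 in KO embryos, and the 4 WT embryos other than WT 1, at 15933 to 16678, were above every KO embryo. The part of hypoblast cells, carried-over follicle cells and detection in the *DLL1* difference was not tested.

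The 3 genes whose log2(TPM + 1) was most like that of *DLL1* over the 9 libraries, among all genes tested, were ENSBTAG00000055309 (Pearson's r = 0.942), *CL46* (r = 0.938) and *CALB1* (r = 0.938). These coefficients were computed over both genotypes, rest in part on the difference between them and carry no test. *CALB1*, which encodes the calcium-binding protein calbindin, was at 9.72, 9.08, 5.38, 5.08 and 20.8 TPM in WT 1 to WT 5 and at 0.522, 0.791, 1.38 and 0.857 TPM in KO 1 to KO 4. *CL46*, a collectin gene, was at 1.24, 2.24, 0.910, 1.22 and 4.92 TPM in the WT embryos and at 0.556, 0.381, 0.300 and 0 TPM in the KO embryos. ENSBTAG00000055309 was at 0.397, 0.390, 0.480, 0.284 and 0.971 TPM in the WT embryos and at 0.369, 0, 0 and 0 TPM in the KO embryos. As with *DLL1*, WT 5 was highest in all 3 genes. All KO embryos were below all WT embryos in *CALB1* and *CL46*, but not in ENSBTAG00000055309, where KO 1 was above WT 4. Among all genes tested, 1.23% had all KO embryos below all WT embryos. The 3 genes were picked for likeness to *DLL1*, so a high WT 5 and low KO embryos follow in part from that choice. These orders are therefore not read as a result. Without WT 5, r over the remaining 8 libraries was 0.883 for ENSBTAG00000055309, 0.865 for *CL46* and 0.911 for *CALB1*. Among the other Notch genes that passed the filter, r with *DLL1* ranged from −0.36 for *JAG2* to 0.62 for *NOTCH3*, and was −0.10 for *HES1* and 0.12 for *HEY1*.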

How the data were processed

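Single D8 blastocysts, 5 WT and 4 KO, were sequenced with 1 library per embryo. The deposited table holds TPM, made by the authors from pseudoaligned reads. FastQC, fastp and kallisto are named in the submitters' processing notes, without versions. The annotation, the genome build and the step from transcripts to genes are not given in the sources used here. The labels describe another library kit and sequencer than the study's methods, and which of them applies is not known. All 9 columns of values were used, and each sums to 1000000. They were assigned to WT or KO by name. Which column is which embryo within a genotype is not stated. Titles number the embryos without repeats, so embryos were not paired.

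TPM are not counts, so limma stood in for the count model of the study's methods. Genes with a median above 0.1 TPM over the 9 libraries were tested on log2(TPM + 1) with limma 3.58.1 in R 4.3.3 (lmFit, eBayes with trend, two-sided), with Benjamini-Hochberg adjustment over all genes tested. A gene counted as changed when its adjusted p was under 0.05 and its log2 fold change above 1 or below −1. Log2 fold changes are KO minus WT and understate differences of low genes. Single genes were also compared by exact permutation over all 126 splits (Python 3.11.15, scipy 1.17.1). The fit was tested on simulated data.

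Genes named are *TEAD4*, the 10 Notch genes, those of the 8 other pathway lists with an unadjusted p under 0.05 or groups that did not overlap, the most abundant gene of each list and the 3 genes most like *DLL1*. Others named were chosen after their values were seen. The Notch genes and the pathway and marker lists were chosen with earlier results of these data known. As a check of symbols, the 10 Notch genes and all 61 other pathway genes matched the RefSeq annotation of ARS-UCD2.0. As a check of zeros, 10 of 10 housekeeping genes were above 0 TPM in every library, the lowest *HPRT1* at 58.7 TPM. Each embryo was left out in turn, and other fits used array weights, robust eBayes, no trend, quantile normalization, median-of-ratios size factors, a median above 1 TPM, no filter or a pseudocount of 0.1 TPM. Sequences are not used here, and 1 pathway gene that enters the counts is not reported here by name or in the plots.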

Additional observations from a re-analysis of the deposited data

Results flagged for a closer look

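In each genotype, the highest or lowest embryo was marked by Dixon's Q test, where its gap to the nearest other embryo, as a share of the range of its group, exceeded the critical value at the 95% level for 4 or 5 embryos, a rule by which chance marks about 1 in 20 groups. The rule was applied to 19 genes (*TEAD4*, the 10 Notch genes and the most abundant gene of each of the 8 other pathway lists) and not to other genes named in the report, such as *HEY2*. Of their 38 groups, 7 were marked, and *DLL4* in KO embryos, at 0 throughout, had no range to test. WT 5 stood above the other 4 WT embryos in *NOTCH2* (0.120 TPM), *DLL1* (1.58 TPM) and *DLL4* (0.255 TPM). WT 4 stood below the other WT embryos in *JAG2* (0.533 TPM), and WT 3 stood above them in *HDAC1* (489.7 TPM). Among the KO embryos, KO 2 stood above the others in *HES1* (56.6 TPM) and KO 4 below them in *PSENEN* (237 TPM). Without WT 5, *DLL1* averaged 0.608 ± 0.0625 TPM (SD, n = 4) in WT embryos, 11.6 times the KO mean.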

How the results depend on the processing

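In 17 alternative fits, *DLL1* was lower in KO in each of the 16 that tested it and was called in 0 (in the main setting, with a pseudocount of 1 TPM, its WT mean of 0.82 on the log2 scale left no room for a decrease beyond 1), with log2 fold changes from −2.58 to −0.61, adjusted p from 0.168 to 0.717 and unadjusted p from 0.000357 to 0.00519 (limma). *DLL1* passed the filter of 0.1 TPM only through its WT values, so its direction and p over these fits describe its values and are not read as a test. A median above 1 TPM left *DLL1*, *NOTCH3* and *JAG1* without a value, and *NOTCH1*, *NOTCH2* and *DLL4* had one only without a filter. No other tested Notch gene was called in any fit. *JAG1*, *JAG2*, *RBPJ* and *HEY1* kept their direction. The log2 fold change of *NOTCH3* turned to 0.022 after quantile normalization, and that of *HES1* ranged from −0.13 (without WT 2) to 0.25 over fits with 1 embryo left out, with −0.07 without KO 2. The cause was not tested. The number of Notch genes lower in KO, 3 of 7, was 5 of 10 without a filter and 1 of 4 with a median above 1 TPM, as more or fewer genes were then tested. It was 2 of 7 after quantile normalization and 4 of 7 without WT 2 or without KO 2. Over all genes, 3 were called. The count was 8 with a pseudocount of 0.1 TPM, 8 with a median above 1 TPM, 5 with median-of-ratios size factors (1 lower, 4 higher, against 1 and 2), 6 after quantile normalization, 5 without trend and 6 with robust eBayes. With 1 embryo left out it ranged from 0 to 10. It was 0 without WT 3, WT 4, KO 1, KO 2 or KO 4, where limma gave 839, 824, 980, 1235 and 893 genes an unadjusted p under 0.05, and it was 1 without WT 5 and 10 without KO 3. The number of pathway genes at an unadjusted p under 0.05 was 1 in the main setting (861 of 14599 genes tested). It was 0 with a median above 1 TPM (646 of 11219) and 2 with array weights (*HEY2* beside *DLL1*, with 1151 of 14599). The range was 1 to 5 with 1 embryo left out. It was 5 without KO 2 (*ADAM17*, *SPEN*, *NUMB* and *ITCH* beside *DLL1*), where 1235 of 14661 genes tested reached that p. Without WT 1 it was 4 (*LFNG*, *CTBP2* and *HEY2* beside *DLL1*), where 902 of 14733 did. Without WT 4, KO 1, KO 3 or KO 4 it was 2. In these fits 824 of 14587, 980 of 14716, 1077 of 14664 and 893 of 14680 genes tested reached that p. Without a read number behind TPM, counting error at *DLL1* and the receptors cannot be computed.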

Other observations

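Embryos of 1 genotype differed more in some Notch genes than the genotypes did. *HEY1* and *LFNG* were both lowest among WT embryos in WT 1 (1.60 and 1.16 TPM) and highest in WT 3 and WT 4 (6.37 and 10.2 TPM for *HEY1*, 18.3 and 18.1 TPM for *LFNG*). The ICM factor *SOX2* was lowest and highest in these WT embryos too, at 3.89 TPM in WT 1, 68.2 TPM in WT 3 and 90.4 TPM in WT 4. In the KO embryos this order did not hold, as KO 3 had the lowest *SOX2* (2.26 TPM) but the highest *LFNG* (6.82 TPM). *NRARP*, a feedback inhibitor that Notch induces, was highest in KO 1 at 4.52 TPM and listed at 0 in WT 1, WT 2 and KO 4. *LFNG*, *SOX2* and *NRARP* were chosen after their values were seen, and the order shared between genes was not tested.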
